A study of Drosophila melanogaster with 4 samples.

Results

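Broad domains of H3K36me3, histone H3 trimethylated at lysine 36, were examined in embryos of Drosophila melanogaster aged 14 to 16 h from Oregon-R, a wild-type laboratory strain (official name Oregon-R-modENCODE). The study holds 2 H3K36me3 ChIP-seq libraries and 2 input libraries, all from embryos of this strain, stage and wild-type genotype, with no other treatment or genotype in the labels. Embryos of both sexes and of every tissue are mixed in such material, so a region stands for an average over cells. The domains are the enriched regions of 10000 bases or more in the series-level list, on 2L, 2R, 3L, 3R, X and chromosome 4 and on no heterochromatin scaffold or unplaced sequence. This gave 502 domains among 4468 series-level regions, of which 4178 lay on the arms, and 3676 of those were under 10000 bases. A further 4 regions of 10000 bases or more lay on the sequences left out. The domains were chosen by their width in the series-level list, so their widths, their number and all that follows directly from width are given as description. The sources used here do not say how that list was made from the libraries, and it may have used both, so the replicate lists are not independent of it.

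H3K36me3 is laid down along the bodies of transcribed genes by the methyltransferase Set2, which travels with elongating RNA polymerase II, and it typically builds up towards the 3′ ends of genes. In flies the mark is also known from a pair of special settings, the male X chromosome, where it helps the dosage compensation complex to spread over active genes, and the small dot chromosome 4, where active genes sit in a largely heterochromatic surrounding. An enriched region can cover a single long gene, part of one, or several neighbouring genes whose marked stretches run together. The coordinates below are those of FlyBase release 5, per the file headers. The gene table at hand belongs to release 6, so no gene is named for any domain, and no genome sequence of release 5 was used here.

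The domains made up a small share of the regions and a larger share of the marked sequence. They were 12.0% of the regions on the arms and held 6.94 Mb, which was 29.0% of all marked bases there and 5.76% of the length of the arms. The regions under 10000 bases held 17.0 Mb, or 14.1% of the arms. Domain widths ran from 10013 to 40727 bases with a median of 12578 bases and a middle 50% from 11116 to 15421 bases. Most domains were thus close to the limit. There were 245 domains from 10000 to 12500 bases, 122 up to 15000, 105 up to 20000, and 30 of 20000 bases or more. The 3 domains just over the limit were 10013 bases on 3R and 10015 and 10023 bases on 2R, and the 3 regions just under it were 9991 and 9981 bases on 2L and 9987 bases on 2R.

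The widest domain lay on X from 1750848 to 1791574 and was 40727 bases wide. It stood apart from the rest, since the next widest were 28745 bases (2R from 4771768 to 4800512), 28225 bases (2R from 9742250 to 9770474), 27987 bases (3L from 2766692 to 2794678) and 27519 bases (3R from 1289938 to 1317456). The sixth to the tenth were 27407 bases on 2R from 3388212 to 3415618, 26927 bases on 2L from 2133986 to 2160912, 25875 bases on 3L from 3353440 to 3379314, 25157 bases on X from 15607854 to 15633010 and 24465 bases on 3R from 17840948 to 17865412. Chromosome 4 held none of these 10, and its widest domain measured 20317 bases, from 127148 to 147464.

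Domains lay on every arm, and they were by far the densest on chromosome 4. That chromosome held 27 domains on 1.35 Mb, or 20.0 per Mb, against 475 domains and 3.99 per Mb on the 5 large arms together. Each replicate list showed the same contrast by its own count of regions of 10000 bases or more. Chromosome 4 had 17.8 per Mb in replicate 1 and 17.8 per Mb in replicate 2 (24 regions in each), while the large arms had 3.63 and 2.52 per Mb. The large arms averaged 3.07 ± 0.784 per Mb over the replicates (SD, n = 2), so the difference was many times the spread between them. Regions under 10000 bases were also denser on this chromosome, at 39.9 per Mb against 30.4 on the large arms. The domains took a larger part of all regions there. Domains were 33.3% of its 81 regions (95% Wilson interval 24.0 to 44.1) and 11.6% of the regions on the large arms (interval 10.6 to 12.6). They held 60.2% of the marked bases on chromosome 4 and 28.2% on the large arms, and 27.7% of the whole length of chromosome 4 lay in domains. All Wilson intervals given for shares of regions stand for counting error alone, as if the regions were independent.

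**Figure D1:**
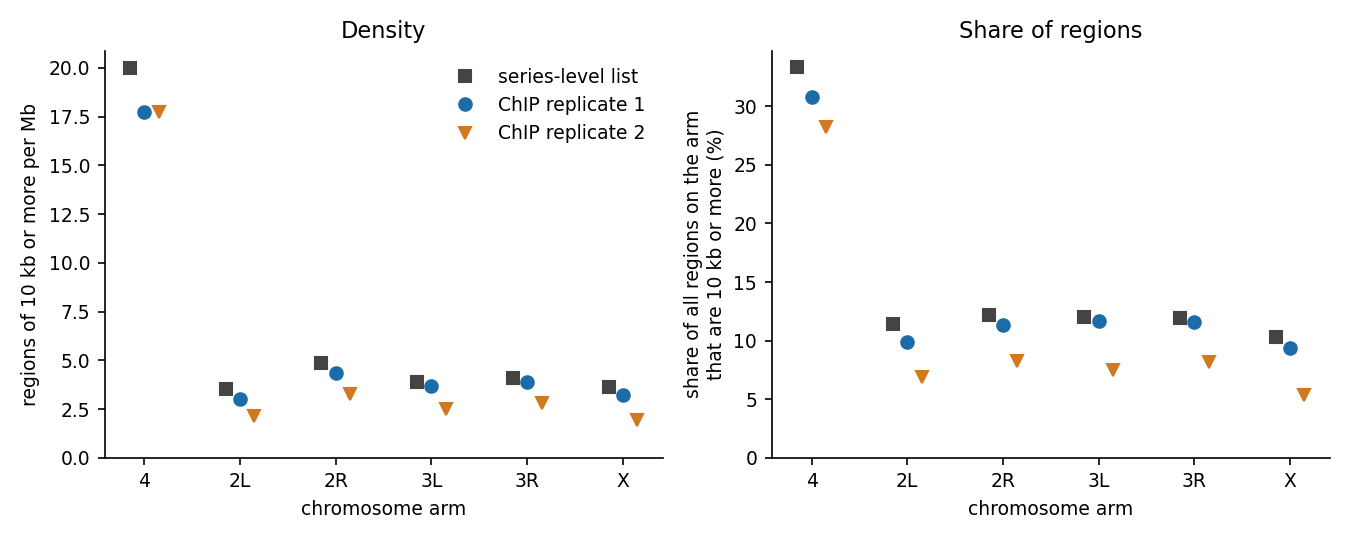
Regions of 10 kb or more per Mb (left) and as a percent of all regions on the arm (right), for chromosome 4 and the 5 large arms, in the series-level list (squares), ChIP replicate 1 (circles) and ChIP replicate 2 (triangles). Chromosome 4 stands above the other arms in each list, at 20.0 per Mb in the series-level list, and replicate 2 lies lowest on each large arm.

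Among the large arms the density of domains differed little. The series-level list gave 4.87 per Mb on 2R (103 domains), 4.09 on 3R (114), 3.91 on 3L (96), 3.61 on X (81) and 3.52 on 2L (81). By the replicates' own counts the means were 3.81 ± 0.769 per Mb on 2R, 3.33 ± 0.760 on 3R, 3.10 ± 0.864 on 3L, 2.56 ± 0.915 on X and 2.56 ± 0.615 on 2L (SD, n = 2 each). Neighbours in this order lay closer together than the SD of either, whereas 2R was first in every list. Within each replicate the order was the same except for X and 2L, which changed places. The X chromosome had the lowest share of its regions in domains, at 10.3%, against 11.9% on the 4 autosomal large arms, a difference within the 95% Wilson interval of the X share (8.35 to 12.6). By the replicates' own lists the X share was also the lowest. It was 9.35% against 11.2% on the autosomal large arms in replicate 1, and 5.38% against 7.76% in replicate 2. The median domain width ranged only from 12353 bases on X to 13169 bases on 2R, with 12591 bases on chromosome 4.

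Along the arms the domains were spread from end to end. When each large arm was cut into 5 equal parts by length, counted from the start of its coordinates, every part held domains, from 6 to 30 of them. The sparsest was the fourth part of 2L, with 6 domains among 85 regions and 5 and 2 wide regions in replicates 1 and 2. Its neighbour, the third part of 2L, had 23 domains, which was the largest number on that arm, and 17 and 11 wide regions in the replicates. The first part of 3R held 30 domains and the first part of 3L 28. The large arms held 117 whole blocks of 1 Mb, which leave out chromosome 4 and the last bases of each arm. In these blocks the median was 4 domains, the highest count was 9, 4 blocks had none and 15 had 1. The variance of the count was 1.47 times its mean for domains and 2.56 times for regions under 10000 bases. The means were 4.03 domains and 30.6 narrower regions per block. Such a ratio can rise with the mean, so these values do not show which were spread more evenly. Blocks rich in domains tended to be rich in narrower regions too (Pearson r = 0.403 across the 117 blocks, which share the same libraries and are not independent samples).

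The spacing of domains was close to that of narrower regions. The gap from a domain to the nearest other region had a median of 1621 bases, with a middle 50% from 531.5 to 4447 bases, against 1832 bases for regions under 10000 bases, with a middle 50% from 552.5 to 5851 bases. Of the domains, 191 (38.0%, 95% Wilson interval 33.9 to 42.4) had another region within 1000 bases, against 36.9% of the narrower regions and 37.0% of all regions on the arms. The shares within 5000 bases were 77.7% for domains (interval 73.8 to 81.1) and 72.1% for narrower regions (interval 70.6 to 73.5). In the replicate lists, wide regions had a median gap of 1741.5 and 1345.5 bases in replicates 1 and 2, and narrower regions 1808.5 and 1561 bases. Wide regions thus had the smaller median gap in each library. The means of 1543.5 ± 280.0 and 1685 ± 175.0 bases (SD, n = 2) differed by less than the SD of either. The share within 1000 bases had no common direction. It was 35.75% for wide and 37.60% for narrower regions in replicate 1, and 41.98% and 40.59% in replicate 2. Series-level regions from 7500 to 10000 bases had a median gap of 1577 bases, so the small gap was not particular to domains. Of these regions, 39.96% had another region within 1000 bases and 74.48% within 5000. Over all arms the sequence around domains was somewhat fuller, since other regions covered a median of 31.1% of the 50 kb on each side of a domain and 26.9% beside a narrower region. On chromosome 4 the order was the other way, with 32.1% beside domains and 47.9% beside narrower regions.

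Domains were mostly scattered singly among narrower regions. Counted over both sides of every domain, which gives 1004 sides, the next region was itself a domain on 130 (12.9%), close to the 12.0% that domains make up of all regions on the arms. Counted by domain, 123 of 502 (24.5%) had another domain directly next to them, against 22.4% of the narrower regions and 22.7% of all regions. On chromosome 4, where domains are dense, this held for 15 of 27 domains (55.6%) and for 57.4% of its narrower regions. Consecutive domains formed 51 pairs and 7 stretches of 3, and 379 domains had a narrower region or an arm end on both sides. No stretch held more than 3. The most compact stretches of 3 ran on 4 from 202074 to 245022 (42.9 kb, 84.0% of it in domains), on 3L from 3193846 to 3238770 (44.9 kb, 92.0%) and on 3R from 11155154 to 11200704 (45.6 kb, 94.0%).

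The distance from a domain to the nearest other domain had a median of 42292 bases. A narrower region lay a median of 59295 bases from its nearest domain. Between domains the median was 9889 bases on chromosome 4 and 45817 bases on the large arms, and narrower regions lay 8750 and 60985 bases from a domain on the same sequences. On the large arms 154 of 475 domains (32.4%) had no other domain within 100000 bases, against 37.7% of the narrower regions there. The most isolated was on 2L from 15040886 to 15052380, with 1205300 bases to the next domain, in the fourth part of that arm, the sparsest. The others were on 3L from 23307242 to 23325544 (1009240 bases) and on 2L from 22249628 to 22259688 (959515 bases), both in the last part of their arms. All 3 were single regions in both replicates, covered to between 96.2% and 99.7%. Isolation from other domains did not mean isolation from the mark, since the nearest narrower region lay 1681, 383 and 17 bases away.

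**Figure D2:**
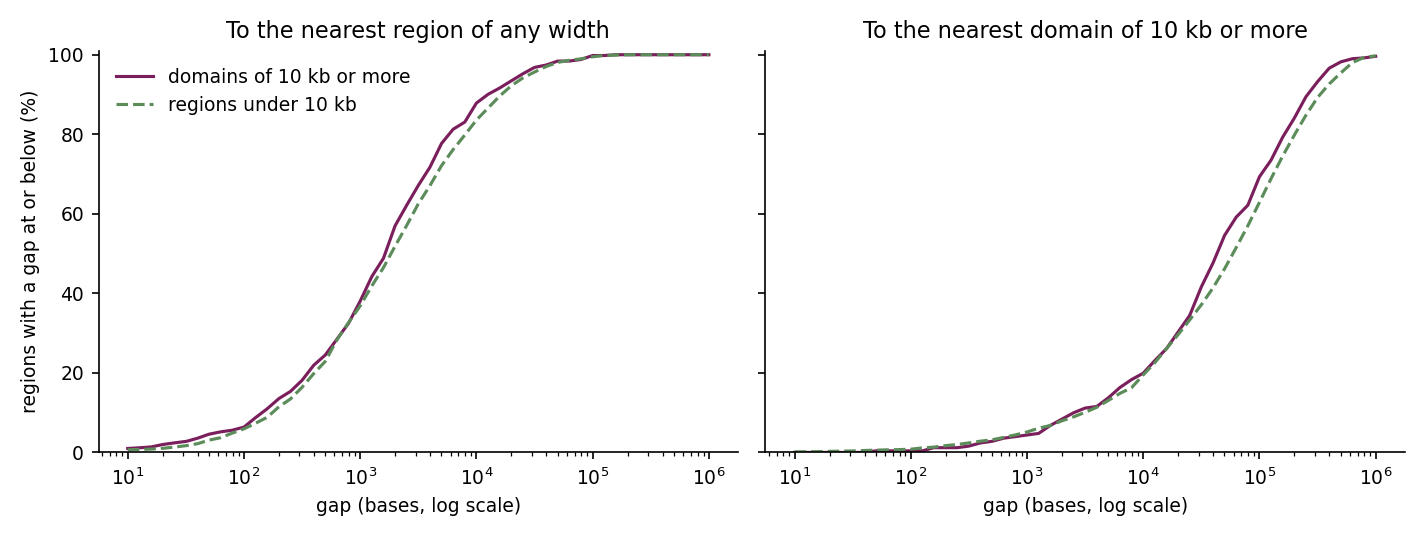
Share of domains of 10 kb or more (solid) and of regions under 10 kb (dashed) whose gap to the nearest region of any width (left) or to the nearest domain (right) is at or below the value on the log-scaled axis. The curves run close together, with medians of 1621 and 1832 bases on the left and 42292 and 59295 bases on the right.

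At the other extreme, some domains were separated by very little. The closest pair lay on 3R, where a domain from 11168584 to 11182602 was followed after 43 bases by one from 11182646 to 11200704. The next were a pair on 3R with a gap of 139 bases after 6156640, a pair on 2L with 155 bases after 13378500, and pairs on 2R with 279 bases after 19916254 and 341 bases after 4997488. Both replicates left these gaps largely open. Replicate 2 covered none of their bases, and replicate 1 covered 0 bases in the first 3, 9.32% of the fourth and 2.93% of the last. The replicates split the first of these pairs further, into 4 regions in replicate 1 and 6 in replicate 2.

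Both replicates covered the domains nearly in full. Replicate 1 covered 98.9% of their bases and replicate 2 covered 95.5%, a mean of 97.2% ± 2.45 (SD, n = 2), against 95.3% and 87.0% of the bases of narrower regions, a mean of 91.2% ± 5.86 (SD, n = 2). The difference was 3.64 percentage points in replicate 1 and 8.46 in replicate 2, so domains were covered more in each library (two-sided exact sign-flip test over the 2 replicates, p = 0.5, the smallest that 2 pairs allow). Regions of both replicates shared 95.1% of the domain bases. Replicate 1 alone added 3.80%, replicate 2 alone 0.337%, and 0.720%, or 49.9 kb, had no region of either. No domain was missed by a replicate, and none was covered to less than 50%. Among the 3676 narrower regions replicate 1 had no region at 221 and replicate 2 at 427. Most of these, 214 and 377, were under 2500 bases wide. Neither replicate missed a region from 7500 to 10000 bases, so this was not particular to domains.

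Cover depended on width mainly at the narrow end. Replicate 2 covered 41.2% of the bases of regions from 1000 to 2500 bases, 86.3% from 2500 to 5000, 92.1% from 5000 to 7500, 94.3% from 7500 to 10000, 94.9% from 10000 to 12500 and 95.2% at 20000 bases or more. Replicate 1 covered 69.1% in the narrowest class and between 95.9% and 99.4% in every wider one. Nothing in these values sets in at 10000 bases, since the last class below it was covered to 98.5% and 94.3% in replicates 1 and 2 and the first class above it to 98.7% and 94.9%. Reaching 90% of a domain's length was the rule, at 497 of 502 domains in replicate 1 (87.4% of all regions on the arms did so) and 442 in replicate 2 (63.2% of all regions).

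Splitting was where the replicates parted. A domain counts as split in a replicate when 2 or more regions of that replicate overlap it by at least 1 base. Replicate 1 split 59 of the 502 domains (11.8%, 95% Wilson interval 9.22 to 14.9), against 2.66% of all regions on the arms. Replicate 2 split 207 (41.2%, interval 37.0 to 45.6), against 9.57% of all regions. The mean was 26.5% ± 20.8 (SD, n = 2), and the spread between the libraries was nearly as large as the mean. Narrower regions were split to 1.41% in replicate 1 and 5.25% in replicate 2. A wide region has more room for a break, and per 10000 bases the breaks numbered 0.0908 and 0.366 in domains and 0.0312 and 0.114 in narrower regions. The lower rate in narrower regions is in part set by width, since the narrowest have little room for 2 replicate regions. Some of them also held no replicate region at all. From 7500 to 10000 bases the rates were 0.0560 and 0.243 in replicates 1 and 2, and from 10000 to 12500 bases 0.0806 and 0.304.

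The split domains of replicate 1 were nearly all split in replicate 2 as well. Both replicates split 53 domains (2.08% of all regions were split in both). Another 6 were split by replicate 1 but not 2, 154 by replicate 2 but not 1, and 289 were whole in both lists. Replicate 1 cut 55 domains into 2 regions and 4 into 3. Replicate 2 cut 165 into 2, 38 into 3, 3 into 4 and 1 into 5. It had more pieces than replicate 1 at 167 domains and fewer at 7. The share of split domains climbed with width in replicate 2, with 30.2% from 10000 to 12500 bases, 44.3% up to 15000, 52.4% up to 20000 and 80.0% of the 30 widest. The same classes in replicate 1 gave 8.98%, 12.3%, 12.4% and 30.0%. Just below the limit, from 7500 to 10000 bases, the shares were 4.60% and 20.7% in replicates 1 and 2, so the climb began among narrower regions.

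**Figure D3:**
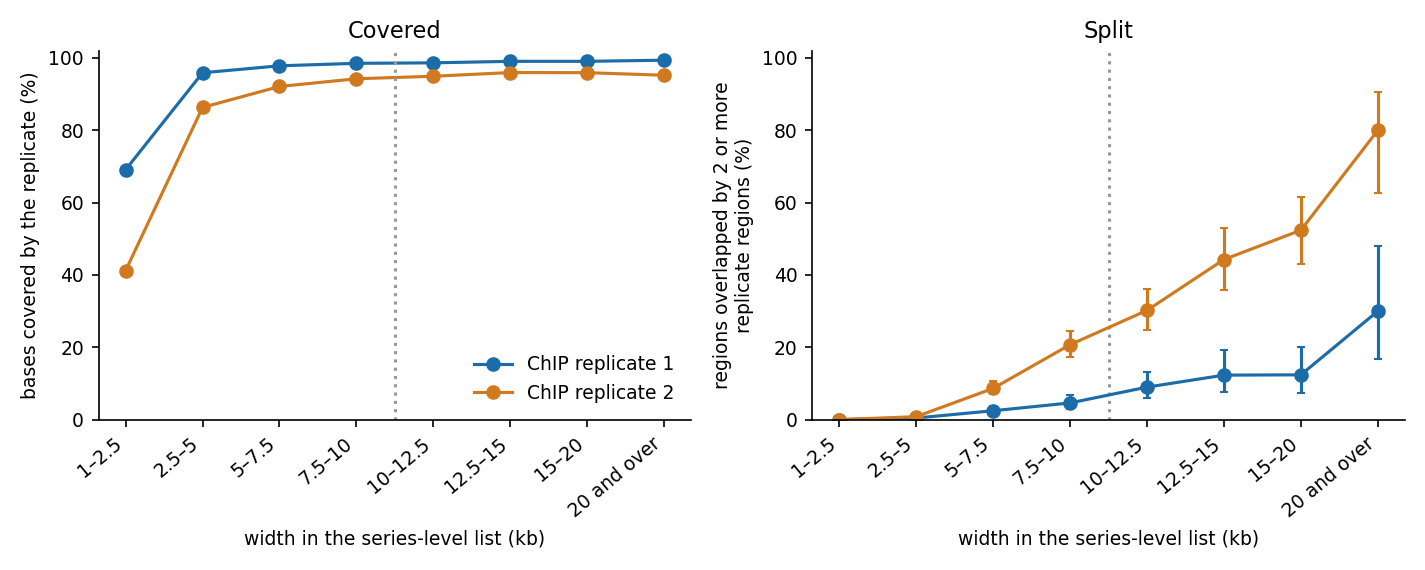
Percent of bases covered (left) and percent of regions overlapped by 2 or more replicate regions (right) by width class in the series-level list, for ChIP replicates 1 and 2. Bars on the right are 95% Wilson intervals, the dotted line marks 10 kb, and the share split in replicate 2 climbs to 80.0% in the widest class while cover stays above 94% in every class from 7.5 kb up.

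Most breaks were short. The 63 breaks of replicate 1 inside domains had a median of 69 bases and added up to 11.6 kb, and the 254 breaks of replicate 2 had a median of 198.5 bases and added up to 88.8 kb. The longest were 1520 bases in replicate 1 and 2559 bases in replicate 2. A break under 500 bases was the common case, with 56 of 63 in replicate 1 and 196 of 254 in replicate 2. Every break was at most 1000 bases wide in 56 of the 59 domains split by replicate 1 and in 189 of the 207 split by replicate 2, which leaves 3 and 18 domains (0.598% and 3.59%) with a wider break. Of the replicate 1 breaks, 43 (68.3%) met a replicate 2 break at the same place. Breaks sat in the middle 50% of the domain's length in 77.8% of cases in replicate 1 and 74.0% in replicate 2. No listed region was narrower than 1309 bases in replicate 1 or 1301 in replicate 2.

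The longest region of each replicate at a domain reflects both splitting and trimming at the edges. The longest stretch covered by 1 region had a median of 12227 bases in replicate 1 and 10801.5 bases in replicate 2. A region of 10000 bases or more was present at 455 domains (90.6%) in replicate 1, against 11.0% of all regions on the arms, and at 321 domains (63.9%) in replicate 2, against 7.68%. Both replicates had one at 319 domains and neither had one at 45. Among the domains without one, 12 in replicate 1 and 39 in replicate 2 were not split. Of the split domains, 24 of 59 in replicate 1 and 65 of 207 in replicate 2 still had one. Seen from the replicates, 455 of the 456 wide regions of replicate 1 and all 324 of replicate 2 lay at a domain. The exception was a region of 12267 bases on 3R from 12086312 to 12098578, where the series-level list had 2 regions of at most 8237 bases.

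**Figure D4:**
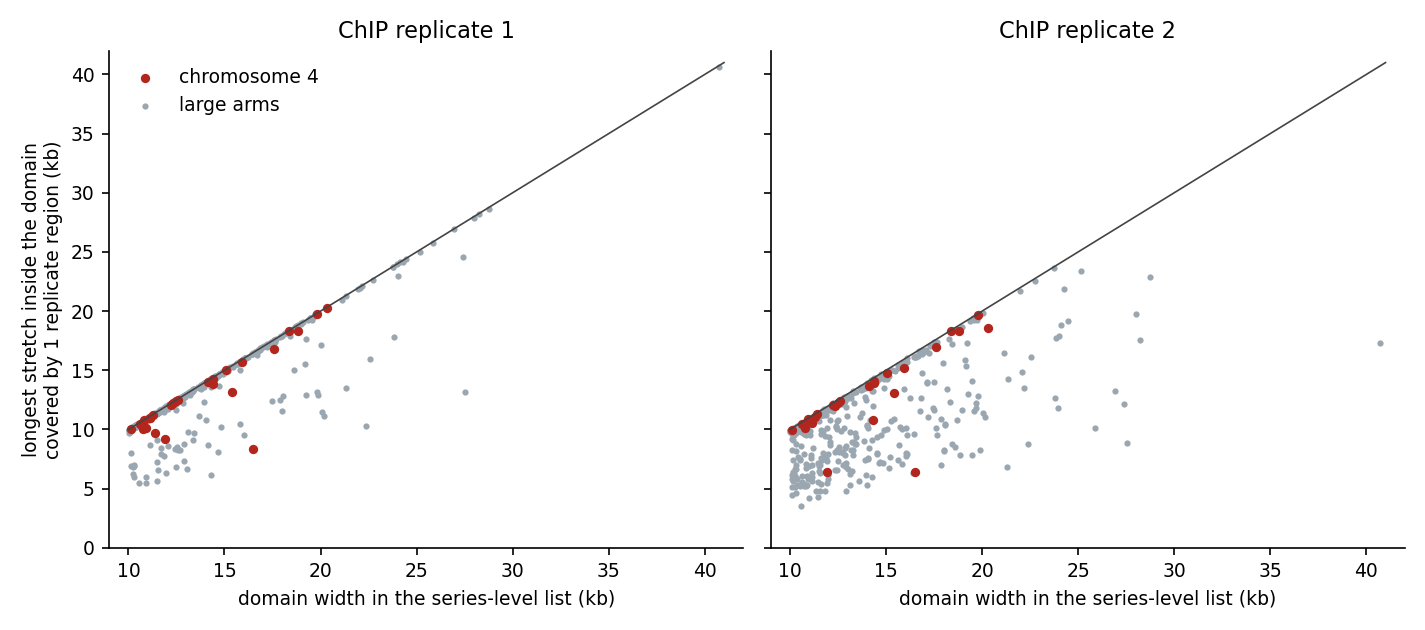
Longest stretch of each domain covered by 1 region of ChIP replicate 1 (left) or replicate 2 (right), in kb, against the domain's width in the series-level list. Points on the diagonal are domains covered as 1 region, points below it are split or trimmed, and domains on chromosome 4 (red) stay nearer the diagonal in replicate 2 than those on the large arms (grey).

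The widest domain, on X, was whole in replicate 1 and split in replicate 2, as 154 of the 502 domains were. Replicate 1 covered 99.8% of it with 1 region of 40639 bases (score 1.99). Replicate 2 covered 97.7% with regions of 7934, 14544 and 17330 bases, whose scores were 1.69, 1.77 and 1.89, separated by breaks of 572 and 100 bases. The scores are the authors' own, on a scale the files do not state, and serve here only to describe or rank the regions of 1 list. The domain on 3R from 1289938 to 1317456 was cut the most, into regions of 6792, 13168 and 7485 bases in replicate 1 and of 3021, 3286, 3564, 8839 and 7207 bases in replicate 2. Its pieces scored between 1.57 and 2.08 in replicate 1 and between 1.39 and 1.92 in replicate 2.

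The other much-divided domains differed in how unequal the scores of their pieces were. On 2R from 3388212 to 3415618, the 4 regions of replicate 2 scored 1.63, 1.64, 1.57 and 1.39, and the 2 of replicate 1 scored 1.75 and 1.10. On 2R from 4801956 to 4825932, replicate 1 had 1 region (score 1.93) and replicate 2 had 4, with scores of 2.00, 0.999, 2.06 and 0.738. On 2L from 19487376 to 19508684, the 2 regions of replicate 1 scored 1.92 and 1.64, and the 4 of replicate 2 scored 1.23, 2.36, 0.735 and 1.66. In these last 2 domains, strongly and weakly scored stretches thus lay side by side within what the series-level list gives as 1 domain. The pieces that scored 0.999, 0.738 and 0.735 were also among the narrowest, at 2600, 2037 and 1958 bases. Whether their scores only follow their width was not tested. Over all split domains the highest and lowest piece differed by a median score of 0.399 in replicate 1 and 0.456 in replicate 2.

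A few wide domains were continuous in both lists. Cover of 99% or more by a single region in each replicate was met by 27 domains (5.38%), against 0.862% of all regions on the arms. Replicate regions were trimmed by similar numbers of bases at domains and at narrower regions. A limit in percent is thus easier for a wide region to meet, and the contrast follows in part from width. The widest of them lay on 3R from 20060836 to 20084600 (23765 bases), with regions of 23705 and 23615 bases in replicates 1 and 2. The next were on 3L from 12743500 to 12766230 (22731 bases, with 22659 and 22564 bases) and on chromosome 4 from 1052430 to 1072228 (19799 bases, with 19753 and 19644 bases).

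The 5 least covered domains fell short in one replicate or in both. On X from 13616850 to 13628558, the replicates began 3305 and 3420 bases inside the domain and covered 71.8% and 68.4% of it. Neither list held a region over those first bases. On chromosome 4 from 775634 to 787562, replicate 1 covered 77.1% with 1 region and replicate 2 80.4% with 3. That domain had the lowest score of all 502, at 0.788. On 2R from 1200064 to 1219944, replicate 1 covered 95.8% and replicate 2 72.0%. Replicate 2 lacked the first 3237 bases, where the replicate 1 region scored 0.562. It also lacked the last 1250 bases and had a break of 1071 bases. On 3L from 6167732 to 6178138, replicate 1 covered 100% and replicate 2 73.6%, and on 3L from 16774194 to 16788112 they covered 88.6% and 86.4%.

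Within the domains, cover was lost at the edges and was otherwise even. With each domain scaled to its own length and cut into 20 bins, replicate 1 covered 92.2% of the first bin and 91.6% of the last, and nearly all of each bin between. Replicate 2 covered 75.1% of the first and 70.8% of the last, and between 94.8% and 98.9% of the others. In bases, replicate 1 began a median of 25 bases and replicate 2 a median of 119.5 bases inside the start of a domain, and they stopped 26.5 and 130 bases before its end. Narrower regions had nearly the same trims, at 26 and 130 bases at the start and 28 and 130 bases at the end. Outside, cover fell to 12.4% and 8.61% in the first 1000 bases before a domain in replicates 1 and 2 and came back to 39.9% and 37.9% in the bin 5 kb away.

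**Figure D5:**
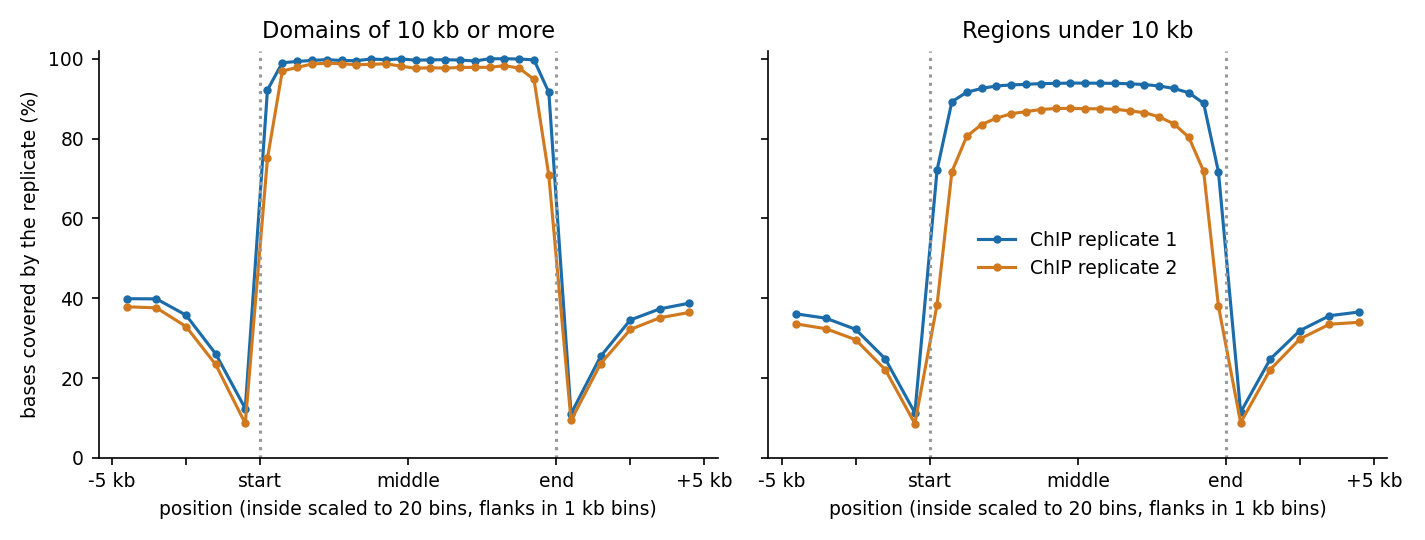
Mean percent of bases covered by ChIP replicates 1 and 2 across domains of 10 kb or more (left) and regions under 10 kb (right), each scaled to 20 bins, with 5 bins of 1 kb on either side. Domains are covered to more than 94% in every bin but the outermost, where replicate 2 lies at 75.1% and 70.8%.

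Scores of the domains lay high in the series-level list, but width added little to score among them. The median score of domains was 1.84, with a range from 0.788 to 3.04, against 1.39 for narrower regions, and 462 of 502 domains lay above the median of the whole list, 1.46. Score and width go together over the whole list, so the high scores follow in part from the choice by width. Among domains alone the rank correlation of width and score was 0.130 (Spearman, 502 domains), and among narrower regions it was 0.728 (3676 regions). Both are descriptions across regions of 1 list.

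Low-scored domains were split more often. The domains were ranked by score and cut into 4 classes of 125 or 126. In the lowest class, with scores from 0.788 to 1.67, replicate 1 split 24.6% and replicate 2 60.3%. The shares were 12.8% and 48.0% in the second class, 5.60% and 38.4% in the third, and 3.97% and 18.3% in the highest, with scores from 2.04 to 3.04. Median widths were 11846, 12981, 12841 and 12965 bases in the same order, so the class that was split most often was also the narrowest. Cover in replicate 2 went with score in the same order, at 92.9%, 95.5%, 96.5% and 96.8%. Score and split come from the same libraries and are not separate measurements.

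Chromosome 4 domains stood out in score and in holding together in replicate 2. Their median score was 2.49, with quartiles of 1.97 and 2.84, against 1.83 on the large arms, with quartiles of 1.66 and 2.02. All 5 of the highest-scored domains lay there, from 668040 to 680258 (score 3.04), from 873568 to 887686 (3.02), from 1133646 to 1143762 (2.99), from 153012 to 165510 (2.91) and from 215834 to 226448 (2.89). Each of the 5 was 1 region in both replicates, covered to at least 97.1%. Replicate 2 split 3 of 27 domains on chromosome 4 (11.1%, 95% Wilson interval 3.85 to 28.1) and 204 of 475 on the large arms (42.9%, interval 38.6 to 47.4). Replicate 1 split 2 of 27 (7.41%, interval 2.06 to 23.4) and 57 of 475 (12.0%, interval 9.38 to 15.2), and these intervals overlap widely. The replicate 2 list kept a region of 10000 bases or more at 24 of 27 domains on chromosome 4 and at 297 of 475 (62.5%) on the large arms.

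Scores moved with this contrast. Within the highest of the 4 score classes, replicate 2 split 0 of 19 domains on chromosome 4 (interval 0 to 16.8%) and 23 of 107 on the large arms (21.5%, interval 14.8 to 30.2). In the other classes it split 3 of 8 on chromosome 4 (37.5%, interval 13.7 to 69.4) and 181 of 368 on the large arms (49.2%, interval 44.1 to 54.3). The share was lower on chromosome 4 in both comparisons. The intervals overlapped, which does not show that the shares were equal. The classes do not match the scores, since in the highest class the median score was 2.77 on chromosome 4 and 2.17 on the large arms. The part of score in the contrast was not tested further.

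Among the large arms, X and 2L were the ones where replicate 2 most often lacked a wide region. It had a region of 10000 bases or more at 51.9% of the domains on X, 59.3% on 2L, 62.5% on 3L, 67.0% on 2R and 68.4% on 3R. In replicate 1 the shares were 88.9%, 85.2%, 94.8%, 89.3% and 93.9% in that order. Split domains were the most frequent on 2L, at 18.5% in replicate 1 and 50.6% in replicate 2, and on X they came to 13.6% and 43.2%. The large arms together gave 12.0% and 42.9%, so X lay close to them in splitting. The scores of X domains were not low, with a median of 1.93 against 1.77 on 2L.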

How the data were processed

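Enriched regions of 2 H3K36me3 ChIP-seq libraries were analysed as lists: 1 for each replicate (4238 and 4320 regions) and 1 series-level list (4468 regions). Bowtie 0.12.7 is the tool listed in the submitters' processing notes, and no source used here names the region caller or its settings. Coordinates are 1-based on FlyBase release 5, per the file headers. Each region carries a deposited score whose scale the authors' files do not state. The 2 input libraries were not analysed here. Without read counts in the files, depth is unknown.

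Lists were read with pandas 2.3.3 in Python 3.11.15, intervals came from scipy 1.17.1, and figures were drawn with matplotlib 3.10.9. The last 3L region of every list was clipped to the sequence length, by 823 to 1007 bases. Domains are series-level regions of 10000 bases or more on the arms. Cover counts the bases of a domain inside replicate regions, and a gap counts the bases between the edges of 2 regions of a list. An exact sign-flip test over 2 replicates cannot go below p = 0.5, and regions are not replicates, so values are descriptions with mean ± SD (n = 2) or 95% Wilson intervals. The labels do not say that the replicates are separate collections. The interval arithmetic equalled a base-by-base count in 40 of 40 simulated sets.

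The domains, the comparisons and the rule for the named regions were chosen with earlier results of these data known. Named regions are the 10 widest domains, the widest per arm, the 3 widest that were full and single in both replicates, the 5 with the most pieces, the 5 least covered, the 5 closest pairs, the 3 most isolated, the 5 highest scores, and the 3 on either side of the limit. The stretches of 3 domains and the replicate 1 region on 3R without a domain were picked after their values were seen. The alternatives were other width limits, joining of regions within 1000 bases, the higher-scored 50% of each list, leaving out chromosome 4 or a replicate, and pieces of at least 500 bases.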

Additional observations from a re-analysis of the deposited data

How the results depend on the processing

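Of 34 alternative settings over 6 results, 23 stayed within the error of the value, or within 1.5 times it for the number of domains, and 11 did not. The number of domains, 502, was 850 with a limit of 8000 bases, 299 with 12000 bases and 785 with regions within 1000 bases joined. Cover of the domains was 89.8% with the higher-scored 50% of each list, where a region can lose its partner to its own list's median, and ranged from 95.5% to 98.9% without a replicate. The share of split domains ranged from 11.8% to 41.2% without a replicate. With n = 2 a single replicate can never lie more than 1 SD from the mean, so these settings cannot speak to stability, and the same wide SD takes in a share of 15.3% with joining and 12.2% with the higher-scored 50%. The median gap to the nearest region, 1621 bases (95% binomial interval 1373 to 1891), was 1897 bases with 12000 bases, and 3539 bases with joining and 4684 bases with the higher-scored 50%, both of which remove near neighbours by construction. The median distance to the next domain, 42292 bases, was 22083 bases with 8000 bases, 89311 bases with 12000 bases and 24379 bases with joining. The share of domains on chromosome 4, 5.38%, was 3.06% with joining. No paired analysis was possible because the groups that share replicate numbers are ChIP and input, and the inputs have no values here, so the sole comparison in pairs was that of domains with narrower regions within each ChIP replicate. The alternative on genes was not run. With no read counts, a break cannot be told from weak enrichment.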

Other observations

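All 4468 series-level regions began and ended on an even coordinate. In the replicate lists even starts were 49.8% of 4238 regions and 50.3% of 4320. The series-level regions thus lie on a grid of 2 bases and the replicate regions do not, and the narrowest series-level region was 1001 bases wide, against 1309 and 1301 bases in replicates 1 and 2. Domain widths and gaps in the series-level list are therefore exact only to this grid, which is small beside the median break of 69 bases in replicate 1.

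A gap between neighbouring domains in the series-level list can be no wider than a replicate 2 break inside one. The 5 closest pairs were 43 to 341 bases apart, while the breaks of replicate 2 inside domains had a middle 50% from 97.25 to 429.25 bases. The 2 widths come from unlike lists. Replicate 2 regions began and stopped a median of 119.5 and 130 bases inside the domain edges, so its own gaps at these pairs can be wider. Whether width tells a gap from a break within 1 list was not tested. At these 5 pairs the replicates also left the gaps largely open, with none of the bases covered in replicate 2 and at most 9.32% in replicate 1. Joining regions within 1000 bases brought the domains to 785.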
